A study of Mus musculus with 6 samples.

Results

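H2-DMa and H2-DMb2, which encode chains of the peptide exchange factor of MHC class II presentation, and Tcf4, which encodes the E protein E2-2, were followed in leukemic mouse bone marrow with different Gfi1 alleles. The members were all probe sets whose gene symbol in the authors' deposited table is exactly H2-DMa, H2-DMb2 or Tcf4. That gave 9 probe sets of 3 genes (1 for H2-DMa, 2 for H2-DMb2 and 6 for Tcf4), of 1135 filled rows with a higher and 854 with a lower mean in Gfi1-KD in that table, and of 45101 probe sets on the array. The table holds only probe sets with an unadjusted p-value under 0.05 between the groups on these same arrays. The members were therefore chosen by the difference described here, and their values are a description with no test.

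Total RNA of whole bone marrow cells, after lysis of red cells, was hybridised to Affymetrix whole-genome mouse arrays, 1 array per sample and 6 in all. The 3 Gfi1-KI and the 3 Gfi1-KD samples came from adult leukemic mice of the same age, and both groups carried the Vav-1 Nup98/HoxD13 transgene, so neither is a wild-type control. As background not taken from the labels, Vav-1 regulatory sequence directs expression to blood cells. Mice with the fusion protein develop myelodysplasia, from which leukemia can arise. The KI allele places human GFI1 coding sequence at the mouse locus, and the KD allele is its version with reduced expression. Gfi1 is a transcriptional repressor of myeloid and lymphoid development. No filled row named Gfi1, so its own level was not analysed here.

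MHC class II molecules carry peptides from endosomes to the surface of dendritic cells, B cells and macrophages. In late endosomes H2-DM, a dimer of an alpha chain (H2-DMa) and a beta chain (H2-DMb1 or H2-DMb2), removes the invariant chain fragment from the class II groove so that other peptides can bind. Class II genes share a promoter module in which RFX proteins bind the X box and NF-Y binds the Y box, an inverted CCAAT sequence, and the coactivator Ciita is recruited there. Tcf4 is a basic helix-loop-helix factor that binds E-boxes. It is required for the development of plasmacytoid dendritic cells, the main producers of type I interferon, and it is also active in B cell development.

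Windows at RefSeq starts of the H2-DM genes are shown because the factors of the class II module act on promoter sequence. For H2-DMa an annotated Ensembl start lies 12351 bases from the RefSeq start, so the window shown may not be the promoter in use. Windows of 250 bases before to 50 bases after a RefSeq start were taken from RefSeq (build GRCm38.p6, all on the plus strand). H2-DMa had 2 windows and H2-DMb2 and its neighbour H2-DMb1 had 1 each. Capitals mark the letters AACNGATG, part of the X1 box, and the CCAAT letters of a Y box (ATTGG on the strand shown). They are the windows of H2-DMb2 at chr17:34144999-34145298, of H2-DMb1 at chr17:34152941-34153240, and of H2-DMa at chr17:34122582-34122881.
H2-DMb2: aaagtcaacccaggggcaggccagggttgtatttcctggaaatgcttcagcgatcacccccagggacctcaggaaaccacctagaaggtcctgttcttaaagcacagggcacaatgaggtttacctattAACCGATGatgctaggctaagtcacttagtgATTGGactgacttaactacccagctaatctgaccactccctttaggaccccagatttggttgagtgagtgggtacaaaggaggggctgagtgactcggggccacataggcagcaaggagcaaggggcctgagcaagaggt
H2-DMb1: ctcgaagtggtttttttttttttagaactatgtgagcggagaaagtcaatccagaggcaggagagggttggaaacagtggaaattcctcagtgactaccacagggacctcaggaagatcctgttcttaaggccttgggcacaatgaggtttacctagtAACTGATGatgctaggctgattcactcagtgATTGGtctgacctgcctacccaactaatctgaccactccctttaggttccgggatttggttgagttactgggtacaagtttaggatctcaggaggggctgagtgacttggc
H2-DMa: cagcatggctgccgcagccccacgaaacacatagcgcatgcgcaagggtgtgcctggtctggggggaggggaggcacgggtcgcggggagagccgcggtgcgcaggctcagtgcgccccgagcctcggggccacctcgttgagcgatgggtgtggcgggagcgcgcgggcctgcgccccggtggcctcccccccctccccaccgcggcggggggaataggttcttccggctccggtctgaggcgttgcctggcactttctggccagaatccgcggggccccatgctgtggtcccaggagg

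The beta chain promoters held both boxes, with 23 bases between them. Counted from the transcription start, the X1 letters began at position -121 and the Y box at position -90 in H2-DMb2. In H2-DMb1 they began at -92 and -61. The 2 beta chain windows were identical at 209 of 270 aligned positions (77.4%, gaps counted). The X1 letters searched were chosen after these sequences had been seen. On either strand they occurred in 2.32% of 32851 RefSeq promoter windows, and CCAAT in 37.4% of them. The X1 letters with an opposite CCAAT 10 to 30 bases on occurred in 7 windows. These were 0.0213% of all and included those of 4 of the 23 class II list genes with a window, H2-DMb1, H2-DMb2 and the class II beta chain genes H2-Eb1 and H2-Eb2.

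The H2-DMa window shown is rich in G and C (73.0%) and held neither box. The other H2-DMa window, at chr17:34125268-34125567, held 1 CCAAT. The deposited annotation puts the RefSeq transcript of H2-DMa at the start used for the window shown (34122831 on chromosome 17, as it counts). It puts an Ensembl transcript at a start of 34135182, which no window used here covers. Sequence before that start was not searched, so the H2-DMa windows do not show that the gene lacks the boxes. AATC, the core of the GFI1 binding site, was searched like the others on both strands. It occurred 3 times in the H2-DMb2 window, where 1 occurrence shares 3 bases with the marked Y box, and 1 time in the H2-DMa window shown. The H2-DMb1 window held 5 and the other H2-DMa window 2, and in each an occurrence likewise overlaps the CCAAT letters. AATC was present in 73.1% of all windows. The E-box CANNTG, present in 72.3%, occurred in the other H2-DMa window, as CACCTG (in 20.2% of all windows), and in neither window printed for H2-DMa and H2-DMb2. A match of letters is no evidence of binding, and the absence of a match says only that these letters are not in the window.

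The H2-DM genes lie next to each other on chromosome 17 (build 38): H2-DMa at 34119693 to 34139101, H2-DMb2 at 34143229 to 34151553 and H2-DMb1 at 34153191 to 34160229. In the deposited annotation the H2-DMa probe set 1459872_x_at aligns at 34138896 to 34139079, ending 22 bases before the end of the gene. Its suffix marks a probe set with probes that can match other sequences. Of the H2-DMb2 probe sets, 1443686_at aligns at 34151141 to 34151553, the last 413 bases of the gene, and 1419744_at spans 34145247 to 34150826. The alignment percentage of 1443686_at in that annotation is 65.0, the lowest of the members. Its design cluster was then titled as weakly similar to the tyrosine-protein kinase JAK3. Both beta chain probe sets are also assigned, with 11 probes each, to a cDNA named for H2-DMb1, and 1419744_at has up to 4 probes that can cross-hybridise with 7 other transcripts. H2-DMb1 was named by no filled row, and the values below cannot be split between the beta chain genes.

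Tcf4 lies on chromosome 18 at 69343429 to 69687967. Its probe sets 1434148_at and 1434149_at align at 69685111 to 69687925, near the end of the gene. They had been designed from a sequence cluster then named Rpl13a, a ribosomal protein gene, and their later alignment puts them in Tcf4. The sequence behind 1416723_at, 1416724_x_at and 1416725_at spans 69344516 to 69685692. The one behind 1424089_a_at spans 69593364 to 69683279, and its suffix marks probes shared by several transcripts of a gene. Among the Tcf4 probe sets 1416724_x_at has up to 8 probes, 1424089_a_at up to 6 and 1416725_at up to 1 that can cross-hybridise with 4 other transcripts each. The first 2 of these had the largest Tcf4 differences in RMA signals. The Tcf4 probe sets thus share parts of 1 gene and are not independent measurements.

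Across the arrays, the median MAS5 signal ran from 117.0 on Gfi1-KD replicate 2 to 148.1 on Gfi1-KD replicate 3. Gfi1-KI replicate 2 correlated least with the others (median Pearson r of 0.905 over log2 signals of all probe sets but controls, against 0.919 to 0.932), and without it the log2 RMA differences of the brightest probe sets were 0.67 for H2-DMa, 0.80 for H2-DMb2 and 0.61 for Tcf4. limma with Benjamini-Hochberg adjustment called 0 of 22519 probe sets tested on MAS5 signals at an adjusted p of 0.05 (0%), so no member and no gene of any list below passed. At an unadjusted p under 0.05 there were 1217 (5.40%), and a two-group analysis of variance called 1. The number of arrays, 3 per group, limits the precision of every value.

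The mean RMA signal of all 9 member probe sets was higher in Gfi1-KD, and on each of them every Gfi1-KD array exceeded every Gfi1-KI array. The table selects for such a pattern: 57.0% of all its rows, and 99.8% of those with a higher mean, show the same separation. The log2 differences of the members ran from 0.29 to 0.73, with a median of 0.62. The median over all rows was 0.14, and over the 1135 rows with a higher mean it was 0.28. The p-values that admitted the members to the authors' deposited table ran from 0.000793 for H2-DMb2 (1419744_at) to 0.0487 for its other probe set, just inside the limit of 0.05. H2-DMa entered at 0.0476 in the authors' deposited table. The step-up p in the authors' deposited table was 0.911 for all 9. Probe sets just outside the limit have blank rows there and are not named. In whole marrow, a change in the number of cells of a type and a change in RNA per cell cannot be told apart.

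**Figure D1:**
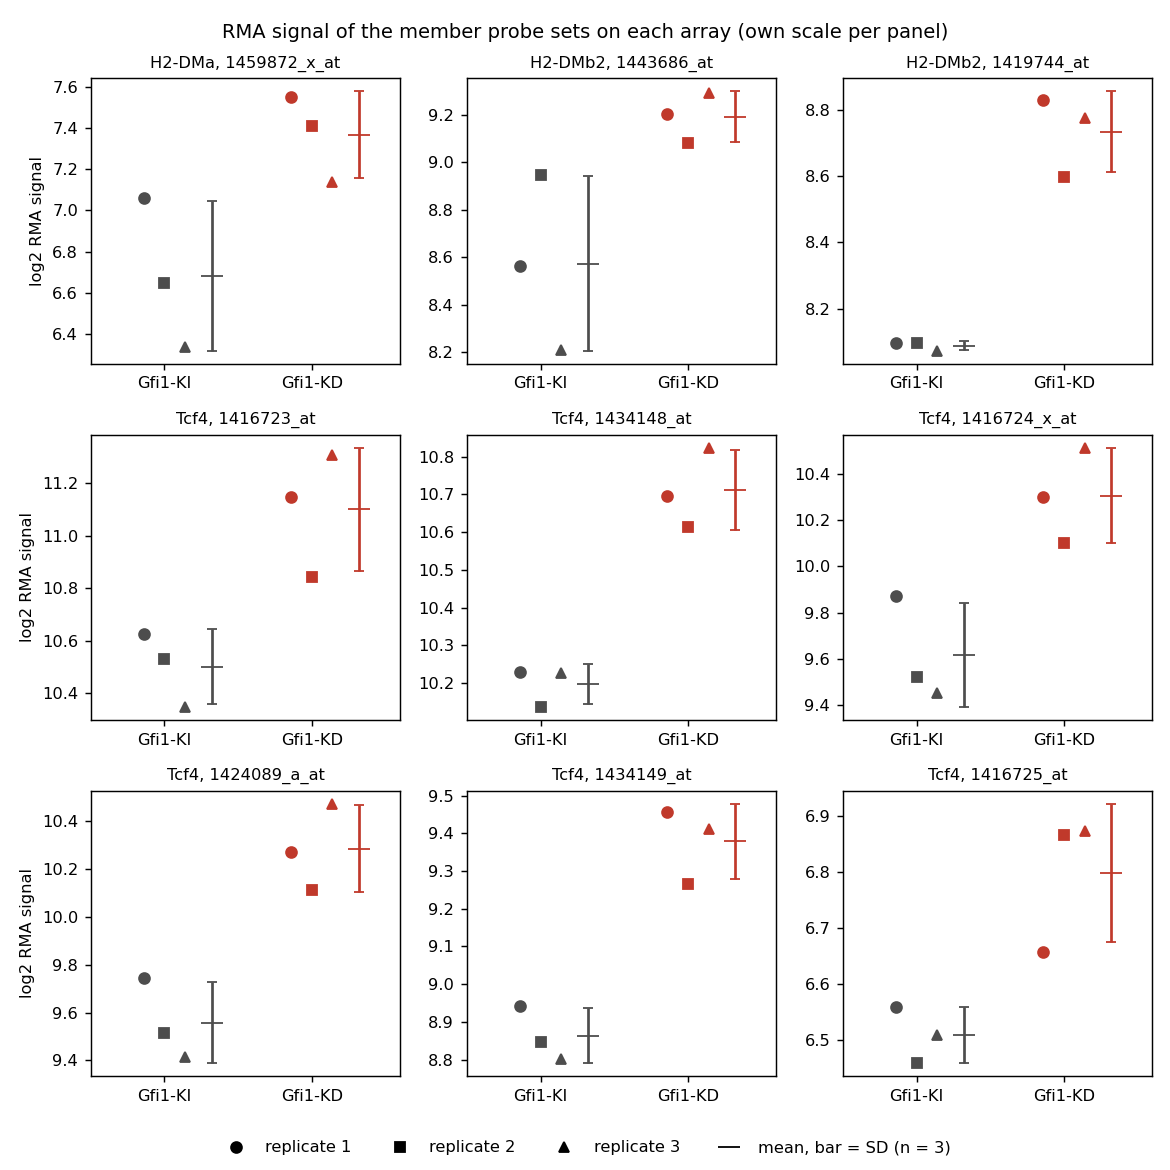
Log2 RMA signal (vertical axis, own scale in each panel) of the 9 member probe sets on the 3 Gfi1-KI (grey) and 3 Gfi1-KD (red) arrays. Symbols mark the replicates and the bars the mean and SD (n = 3). In each panel the red points lie above the grey ones, by 0.08 on the log2 scale for H2-DMa and by 0.50 for H2-DMb2 probe set 1419744_at.

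H2-DMa, the alpha chain of H2-DM, had a 1.61-fold higher RMA signal in Gfi1-KD. Its log2 RMA signals were 7.06, 6.65 and 6.34 on Gfi1-KI replicates 1 to 3 and 7.55, 7.41 and 7.14 on Gfi1-KD replicates 1 to 3. The means were 6.68 ± 0.36 and 7.37 ± 0.21 (SD, n = 3 each), a difference of 0.69 ± 0.24 (SE). The groups did not overlap, but Gfi1-KD replicate 3 lay 0.08 above Gfi1-KI replicate 1, less than the SD of either group. Gfi1-KI replicate 3 was the lowest array, and without it the difference was 0.51. Without Gfi1-KI replicate 1 it was 0.88. Of the 1135 listed probe sets with a higher mean, 213 had a larger difference.

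In the MAS5 signals of the same H2-DMa probe set the groups overlapped. The signals were 297, 176 and 96.3 on Gfi1-KI replicates 1 to 3 and 385, 395 and 253 on Gfi1-KD replicates 1 to 3, so that Gfi1-KI replicate 1 exceeded Gfi1-KD replicate 3. The 96.3 on Gfi1-KI replicate 3 was dim, under the median MAS5 signal of that array, 128.6. The ratio of geometric means was 1.97, a log2 difference of 0.98 ± 0.51 (SE). It was 0.56 without Gfi1-KI replicate 3 and 1.37 when Gfi1-KI replicate 1 was left out, so its size rested in large part on these arrays.

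H2-DMb2, a beta chain gene of H2-DM, was higher in Gfi1-KD in both of its probe sets, by 1.57-fold and 1.53-fold in the RMA signals. Probe set 1419744_at read 8.10, 8.10 and 8.07 on Gfi1-KI replicates 1 to 3 and 8.83, 8.60 and 8.78 on Gfi1-KD replicates 1 to 3. The Gfi1-KI arrays lay within 0.024 of each other and the lowest Gfi1-KD array 0.50 above the highest of them. The means were 8.09 ± 0.01 in Gfi1-KI and 8.74 ± 0.12 in Gfi1-KD (SD, n = 3 each), a difference of 0.65 ± 0.07 (SE). It ran from 0.60 to 0.72 with 1 array left out.

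The MAS5 signals of 1419744_at were 499, 512 and 423 on Gfi1-KI replicates 1 to 3 and 1037, 767 and 1006 on Gfi1-KD replicates 1 to 3. The groups again did not overlap. The ratio of geometric means was 1.95, a log2 difference of 0.96 ± 0.16 (SE). The Gfi1-KI spread was wider than in the RMA signals, with an SD of 0.15 against 0.01 on the log2 scale.

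Probe set 1443686_at, at the end of H2-DMb2, varied more within Gfi1-KI. Its log2 RMA signals were 8.56, 8.94 and 8.21 on Gfi1-KI replicates 1 to 3 and 9.20, 9.08 and 9.29 on Gfi1-KD replicates 1 to 3. The range within Gfi1-KI, 0.73, was larger than the difference of the means, 0.62 ± 0.22 (SE). Gfi1-KI replicate 2, the array that correlated least with the others, was the highest of its group, and without it the difference was 0.80. Without Gfi1-KI replicate 3, the lowest, it was 0.44.

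The MAS5 signals of 1443686_at were 725, 960 and 463 on Gfi1-KI replicates 1 to 3 and 1147, 1115 and 930 on Gfi1-KD replicates 1 to 3. Gfi1-KI replicate 2 exceeded Gfi1-KD replicate 3, so the groups overlapped. The log2 difference was 0.63 ± 0.32 (SE), with 0.35 without Gfi1-KI replicate 3 and 0.87 without Gfi1-KI replicate 2. After the group means were taken off, the 2 H2-DMb2 probe sets had a Pearson r of 0.311 in RMA and 0.412 in MAS5 signals over the 6 arrays. Both put the Gfi1-KI arrays in the same order, with replicate 2 highest and replicate 3 lowest, while the order of the Gfi1-KD arrays differed between them.

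Tcf4, the E protein gene, had higher means in Gfi1-KD in each of its 6 listed probe sets, from 1.22-fold to 1.66-fold in the RMA signals. The probe set with the highest signal, 1416723_at, read 10.63, 10.53 and 10.35 on Gfi1-KI replicates 1 to 3 and 11.15, 10.84 and 11.31 on Gfi1-KD replicates 1 to 3. The means were 10.50 ± 0.14 and 11.10 ± 0.23 (SD, n = 3 each), a difference of 0.60 ± 0.16 (SE), and the lowest Gfi1-KD array lay 0.22 above the highest Gfi1-KI array. Gfi1-KD replicate 3 was the highest array, and without it the difference was 0.49.

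The largest Tcf4 difference was that of 1424089_a_at. Its log2 RMA signals were 9.74, 9.51 and 9.41 on Gfi1-KI replicates 1 to 3 and 10.27, 10.11 and 10.47 on Gfi1-KD replicates 1 to 3. The means were 9.56 ± 0.17 and 10.29 ± 0.18 (SD, n = 3 each), a difference of 0.73 ± 0.14 (SE). Its groups were 0.37 apart at their nearest arrays, about as far as those of the end probe sets 1434148_at (0.38) and 1434149_at (0.32).

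The end probe sets of Tcf4 had close differences, 0.51 ± 0.07 for 1434148_at and 0.52 ± 0.07 for 1434149_at (SE, RMA). The difference of 1416724_x_at was 0.69 ± 0.18 (SE). The smallest was that of the dim 1416725_at, with log2 RMA signals of 6.46 to 6.56 in Gfi1-KI and 6.66 to 6.87 in Gfi1-KD and a difference of 0.29 ± 0.08 (SE). Among the 1135 listed probe sets with a higher mean, 193 had a larger difference than 1424089_a_at and 549 a larger one than 1416725_at.

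In the MAS5 signals all 6 Tcf4 probe sets kept the groups apart. Those of 1416723_at were 3860, 3170 and 2848 on Gfi1-KI replicates 1 to 3 and 5593, 4657 and 6356 on Gfi1-KD replicates 1 to 3, a log2 difference of 0.75 ± 0.18 (SE). Gfi1-KD replicate 3 was highest and Gfi1-KD replicate 2 lowest of its group, as in the RMA signals. For the 6 probe sets the MAS5 differences ran from 0.44 to 0.94. Without Gfi1-KI replicate 2 that of 1416724_x_at was 0.57 in place of 0.73, and that of 1416725_at 0.37 in place of 0.44. The difference of 1416725_at depended more on Gfi1-KD arrays, with 0.27 without Gfi1-KD replicate 3 and 0.56 without Gfi1-KD replicate 1. For 1416725_at the lowest Gfi1-KD array lay 0.07 above the highest Gfi1-KI array.

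**Figure D2:**
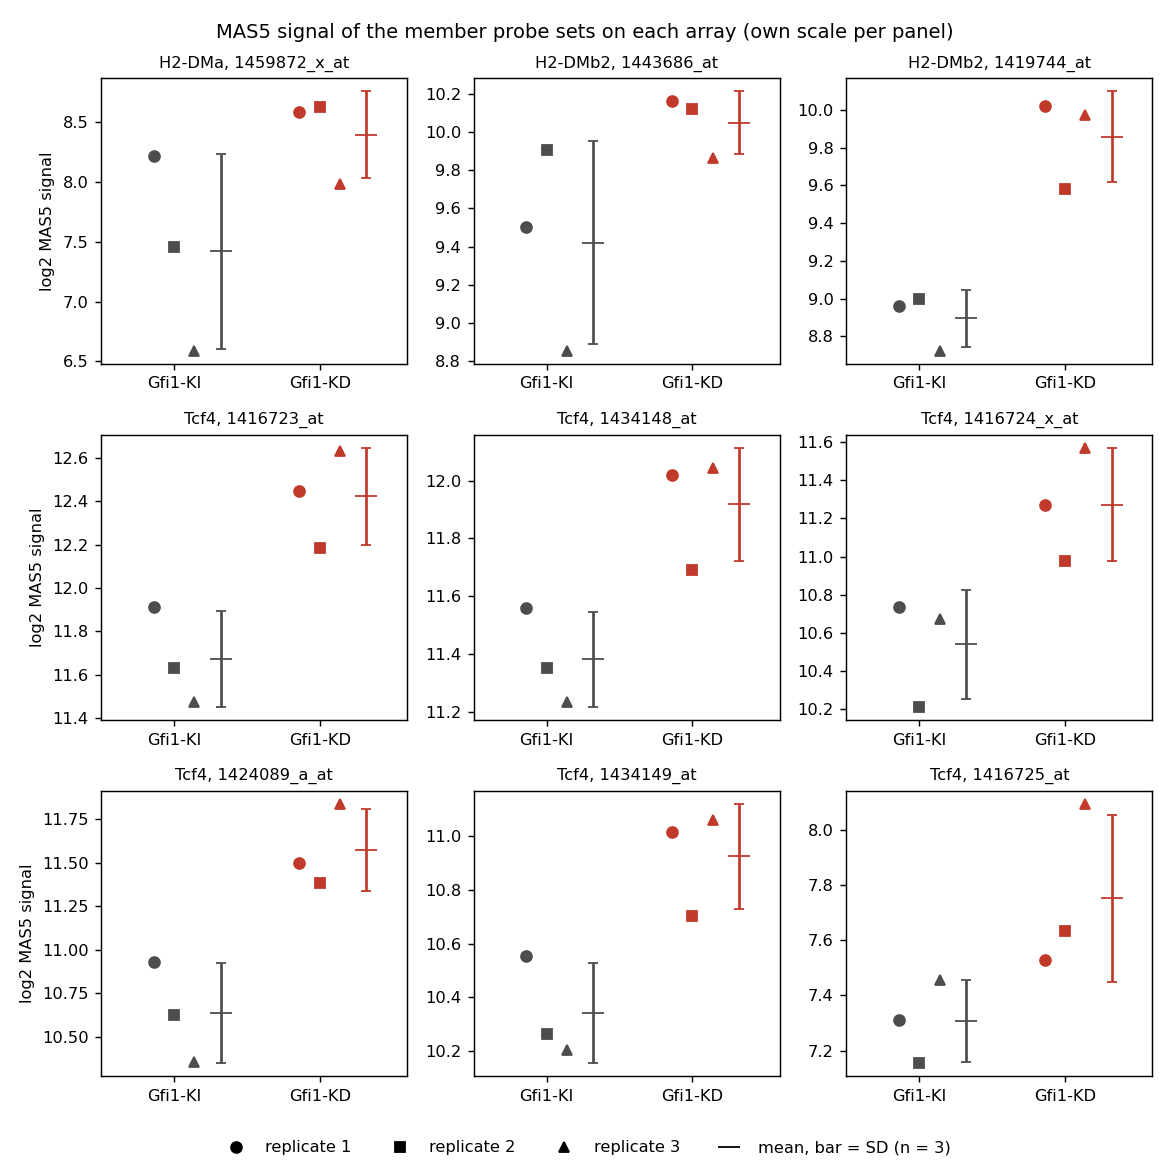
Log2 MAS5 signal (vertical axis, own scale in each panel) of the 9 member probe sets on the 3 Gfi1-KI (grey) and 3 Gfi1-KD (red) arrays. Symbols mark the replicates and the bars the mean and SD (n = 3). The groups overlap for H2-DMa, where Gfi1-KI replicate 1 exceeds Gfi1-KD replicate 3, and for H2-DMb2 probe set 1443686_at, where Gfi1-KI replicate 2 does.

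Among the members, 7 of 9 probe sets had groups that did not overlap in the MAS5 signals, with Gfi1-KD higher, against 6.77% of the 22519 tested probe sets. Since the members were chosen by this contrast, nothing is read from that count. It was 8 of 9 without Gfi1-KI replicate 2 (against 12.7%), where only H2-DMa overlapped. After quantile normalization (6.35%) or centring on array medians (6.14%) it was 6 of 9, as 1416725_at of Tcf4 then overlapped too. All 9 passed the filter on the mean signal over all arrays. The MAS5 difference was larger than the RMA difference for each of the 9, with a median of 0.73 against 0.62. The median MAS5 difference of all tested probe sets, which were not chosen by this contrast, was 0.02. The MAS5 differences of the other listed probe sets are not given here, so the larger MAS5 values are not read as particular to the members.

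**Figure D3:**
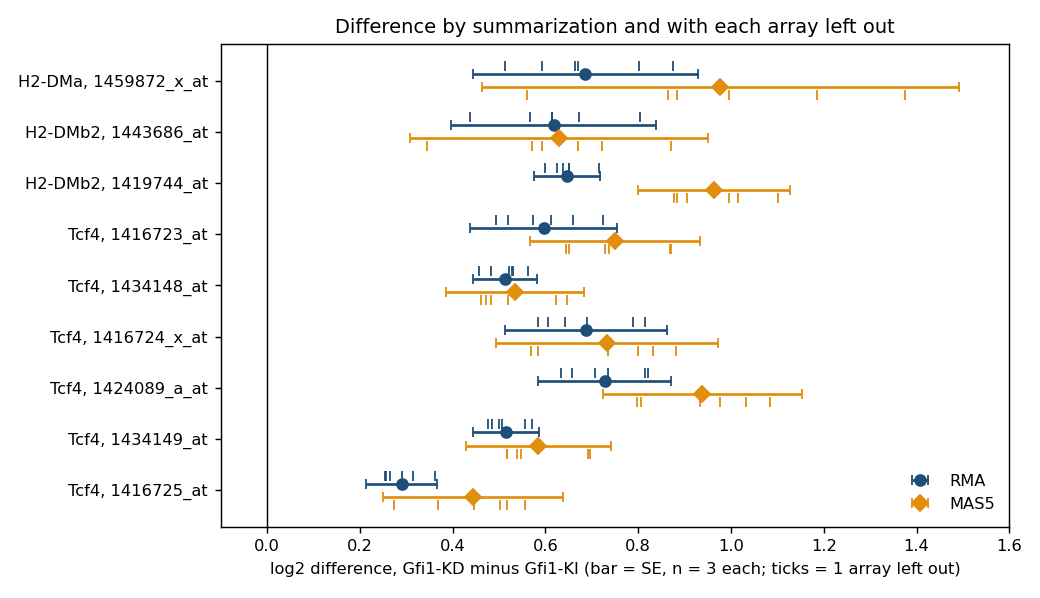
Log2 difference, Gfi1-KD minus Gfi1-KI (horizontal axis), of each member probe set in RMA (blue circles) and MAS5 signals (orange diamonds). Bars are SE (n = 3 each), and small ticks are the values with 1 array left out. All points and ticks lie above 0, from 0.25 for 1416725_at to 1.37 for H2-DMa, and the MAS5 ticks of H2-DMa spread most. In RMA signals those of H2-DMb2 probe set 1443686_at and of H2-DMa spread about equally.

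The arrays at the top and bottom recurred over the members, 6 of whose 9 probe sets belong to Tcf4. Gfi1-KD replicate 3 was highest for 6 of the 9 probe sets in RMA signals, 5 of them of Tcf4, and Gfi1-KD replicate 1 for the other 3. Gfi1-KI replicate 3 was lowest for 7 and Gfi1-KI replicate 2 for 2. H2-DMa differed from Tcf4 in that Gfi1-KD replicate 3 was its lowest Gfi1-KD array. These are values of 1 set of 6 RNA samples, and probe sets of a gene share transcripts.

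The Tcf4 probe sets varied together within the groups. With the group means taken off, the 10 pairs of Tcf4 probe sets other than 1416725_at had Pearson r from 0.519 to 0.992 over the 6 arrays (median 0.811, RMA signals), and from 0.517 to 0.988 in MAS5 signals. The dim 1416725_at correlated with the other 5 at -0.354 to 0.269 in RMA and 0.178 to 0.750 in MAS5 signals. H2-DMa correlated with the H2-DMb2 probe sets at 0.257 (1443686_at) and 0.0935 (1419744_at) in RMA and at 0.678 and 0.236 in MAS5 signals. The 18 pairs of an H2-DM with a Tcf4 probe set ran from -0.606 to 0.851 in RMA signals. With 6 arrays of which 2 means are taken off, such values vary widely, and all pairs share the arrays.

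The genes most like each member within the groups were found among 1511 other genes with 1 symbol in the deposited table, by the same correlation of RMA signals over the 6 arrays. For Tcf4 the closest was Rfx5, a subunit of the RFX complex that binds the X box of class II promoters (r = 0.991). Its log2 RMA signals were 8.96, 8.89 and 8.70 on Gfi1-KI replicates 1 to 3 and 9.37, 9.04 and 9.46 on Gfi1-KD replicates 1 to 3, the array order of Tcf4 probe set 1416723_at. Card14, a CARD family scaffold protein gene (r = 0.988), and Fam49a, now Cyria, which encodes a regulator of RAC1 signalling (r = 0.968), followed. Their log2 differences between the groups were -0.12 and 1.93, and that of Rfx5 was 0.44. As a measure of how common such values are, 38 of the 1511 genes had an r over 0.9 with Tcf4.

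For H2-DMa the closest genes were Ppp2r2c, a regulatory subunit of protein phosphatase 2A (r = 0.978), Necap2, an endocytosis protein (r = 0.977), and Asb14 (r = 0.977). Ppp2r2c and Asb14 were dim, with mean log2 RMA signals of 4.07 to 4.36 in the groups. For H2-DMb2 (1443686_at) they were Scrib, a cell polarity scaffold (r = 0.992), Mbtps1, the site-1 protease (r = 0.984), and Dsc3, a desmosomal cadherin (r = 0.980). Of these, Mbtps1 was higher in Gfi1-KD (log2 difference 0.45) and Scrib and Dsc3 lower (-0.26 and -0.15). Dsc3 was dim too, with mean log2 RMA signals of 3.95 in Gfi1-KI and 3.80 in Gfi1-KD. Scrib varied little within the groups, from 9.426 to 9.466 in Gfi1-KI and from 9.185 to 9.192 in Gfi1-KD. There were 34 genes with an r over 0.9 for H2-DMa and 25 for H2-DMb2. No gene stood among the 3 closest of more than 1 member.

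Other genes of antigen presentation could be followed only where the deposited table names them, which holds 4.41% of all probe sets. Of 30 genes of a class II presentation list, 6 were named, and all 6 had higher means in Gfi1-KD, with a median log2 RMA difference of 0.65. The 6 include the members H2-DMa and H2-DMb2. Like the genes of the lists below, all were admitted by their difference on these arrays, so nothing is read from the shared direction. Over all filled rows 57.1% had a higher mean. The share of all genes on the array that is named was not computed, so the counts of named genes are not set against one. Beside H2-DMa, H2-DMb2 and Rfx5 they were Ctss and Ctsb, lysosomal cysteine proteases of which Ctss trims the invariant chain, and Lgmn, an asparaginyl endopeptidase of endosomes. Ctss read 12.98 ± 0.35 in Gfi1-KI and 13.96 ± 0.23 in Gfi1-KD (log2 RMA, SD, n = 3 each), 1.98-fold higher. Ctsb was 1.53-fold and Lgmn 3.10-fold higher. The class II chains themselves, the invariant chain gene and Ciita were named by no filled row, and their levels were not analysed here.

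Of 22 genes of a class I presentation list, 5 were named, all with higher means and a median log2 difference of 0.24. H2-D1 and H2-K1, class I heavy chains, were 1.18-fold and 1.17-fold higher, with log2 RMA means of 13.89 ± 0.10 and 13.78 ± 0.08 in Gfi1-KI and 14.13 ± 0.03 and 14.01 ± 0.04 in Gfi1-KD (SD, n = 3 each). Tapbp (tapasin, 1.53-fold) and Tapbpl (its relative, 1.70-fold), which edit class I peptides, and Psme1, a proteasome activator subunit (1.10-fold), were the others. The folds of the H2-DM genes, 1.53 to 1.61, were thus close to that of Tapbp and above those of the class I heavy chains in these signals. The difference between these folds was not tested. Of 13 E proteins, their inhibitors and partners, Tcf4 alone was named.

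The name dendritic rests on Tcf4. Of 20 conventional dendritic cell markers none was named, and of 22 plasmacytoid dendritic cell markers 2 were, Tcf4 and Zeb2, a zinc finger repressor also active in monocytes (1.62-fold higher; 10.06 ± 0.11 in Gfi1-KI and 10.76 ± 0.30 in Gfi1-KD, log2 RMA, SD, n = 3 each). The summed RMA signal of these 2, on a linear scale with 1 probe set per gene as in the sums below, was 2436 to 2688 on the Gfi1-KI and 3209 to 4574 on the Gfi1-KD arrays. Tcf4 alone made up 1304 to 1582 and 1838 to 2533. As a member chosen by this contrast, it makes the sum no separate evidence. The genes are therefore called by their symbols here. Markers of other cell types could be seen only where the table admitted them by their difference on these arrays, so their directions are a description, and most of each list could not be read. Of 20 monocyte and macrophage markers, 6 were named, and all had higher means in Gfi1-KD. Their summed RMA signal was 12849 to 19340 on the Gfi1-KI and 25129 to 38990 on the Gfi1-KD arrays. Ctss stands on this list and on the class II list. Csf1r, the receptor of a macrophage growth factor, was 1.81-fold higher. Ctss and Csf1r weigh most in the sum, with log2 RMA means over all arrays of 13.47 and 12.75, against 11.02 or lower for the others.

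Of 20 late neutrophil markers, 4 were named, and all had lower means in Gfi1-KD, with a summed RMA signal of 12564 to 30309 in Gfi1-KI and 445 to 2783 in Gfi1-KD. Ltf, lactoferrin of secondary granules, and Lrg1, a granule glycoprotein, had the highest signals of these. Ltf read 13.40 ± 0.65 in Gfi1-KI and 9.17 ± 2.14 in Gfi1-KD (log2 RMA, SD, n = 3 each), a difference of -4.23, or -2.99 without Gfi1-KD replicate 3 and -4.89 without Gfi1-KD replicate 1. Lrg1 read 11.66 ± 1.15 and 8.65 ± 1.39, a difference of -3.01 that ran from -3.73 without Gfi1-KD replicate 2 to -2.34 without Gfi1-KD replicate 3, and was -3.64 without Gfi1-KI replicate 2. Of 20 B cell markers, 2 were named, the B cell factor gene Pax5 (1.16-fold higher) and Fcrla (also 1.16-fold), with a summed signal of 111 to 123 in Gfi1-KI and 131 to 142 in Gfi1-KD. Both B cell genes were dim, with log2 RMA signals of 6.28 to 6.63 for Pax5 and 5.07 to 5.44 for Fcrla over the 6 arrays. A summed signal above 0 is not read as presence of a cell type, and markers outside the filled rows could not be read. What part monocytes, granulocytes or B cells had in the values of H2-DMa, H2-DMb2 and Tcf4 was not tested.

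**Figure D4:**
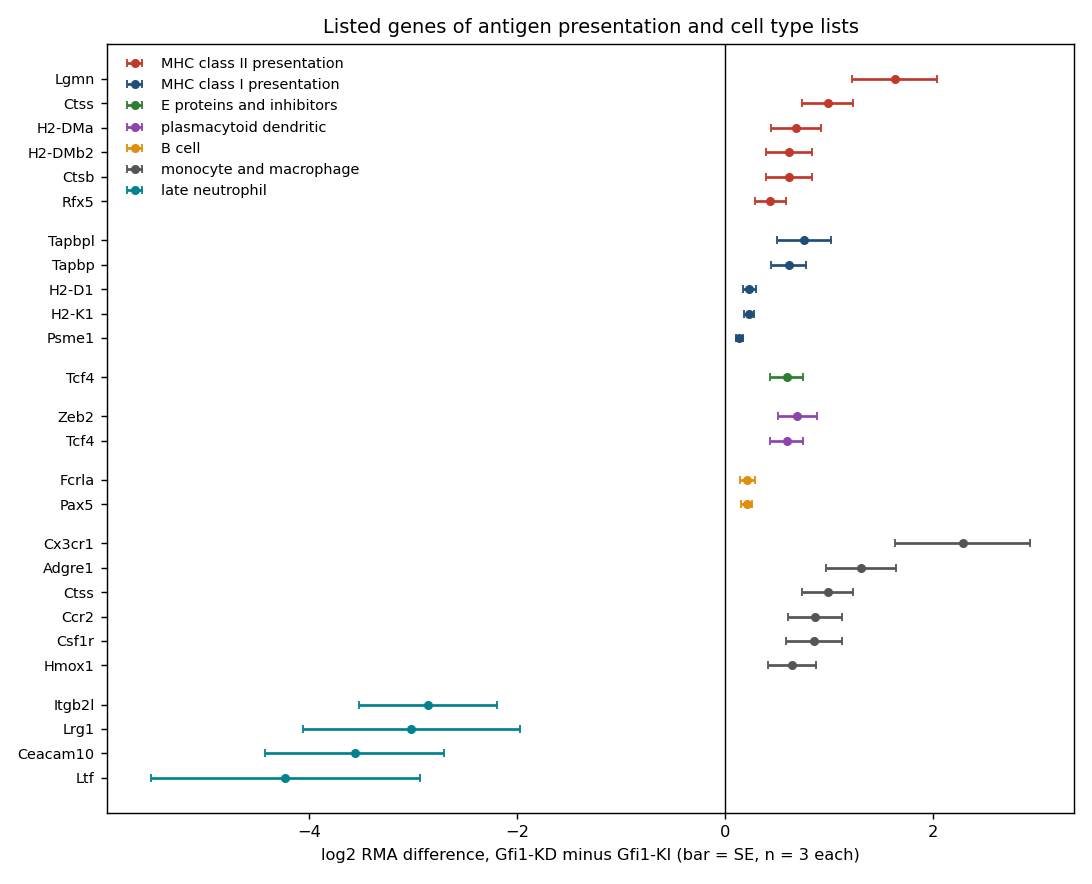
Log2 RMA difference, Gfi1-KD minus Gfi1-KI (horizontal axis), of each named gene of the antigen presentation and cell type lists, coloured by list. Points are the brightest listed probe set of a gene and bars the SE (n = 3 each). The antigen presentation, monocyte and B cell genes lie above 0, from 0.14 (Psme1) to 2.29 (Cx3cr1), and the 4 neutrophil genes at -2.85 or lower.

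**Figure D5:**
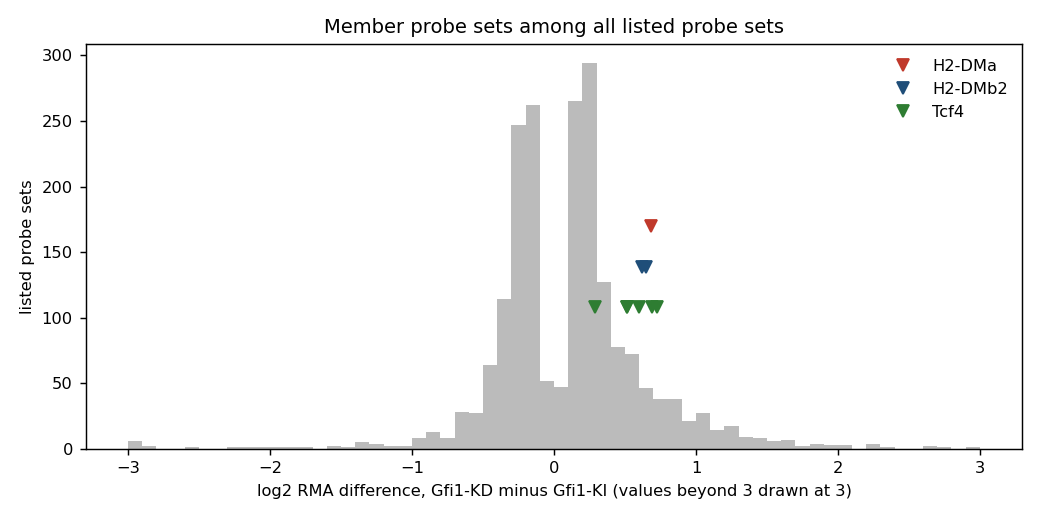
Number of listed probe sets (vertical axis) by log2 RMA difference, Gfi1-KD minus Gfi1-KI (horizontal axis, values beyond 3 drawn at 3), for all filled rows of the deposited table, with triangles at the member probe sets (their height has no meaning). The members sit from 0.29 to 0.73, all above the median of 0.28 of the rows with a higher mean.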

How the data were processed

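Per the labels, 200 ng of total RNA per sample were labelled with biotin. The MAS5 intensity of each probe set is on a linear scale as deposited, for which the submitters' processing notes name MAS5 without a version. The authors' table holds, per the file headers, log2 RMA signals, the p-value and step-up p-value comparing kd with wt, the ratio, and a signed fold score. The software behind it is not given, and wt was read as Gfi1-KI. The deposited ratio was recomputed from the RMA signals within 0.0045%.

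Signals under 1 (455 values) were set to 1. Probe sets other than controls were tested where the mean log2 MAS5 signal reached 6.95, the median, with limma 3.58.1 in R 4.3.3 (lmFit, eBayes with a trend, two-sided, Benjamini-Hochberg). The procedure and the motif search were tested on simulated data. The differences planted for limma were larger than those of the members. The simulation therefore does not show whether differences of the members' size would be called. An exact permutation test of 3 against 3 arrays cannot go below 0.1. Folds are ratios of geometric means, and a gene stands for its listed probe set with the highest mean RMA signal. Python 3.11.15, pandas 2.3.3, numpy 2.4.6 and matplotlib 3.10.9 were used.

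The members, the 8 lists and the tests were chosen with earlier results of these data known. The rule for named genes took the members, the 3 genes most like each, and the 2 brightest named genes of each list. The other list genes given with values, and the motifs, were chosen after values or sequences were seen. Replicates were numbered in order of deposit and pair nothing. Where nothing says that samples are separate animals, p-values measure only the spread between these samples. Alternatives were other scalings, filters, added constants, probe sets, group medians and arrays left out.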

Additional observations from a re-analysis of the deposited data

How the results depend on the processing

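All 170 alternative values computed for the member probe sets were higher in Gfi1-KD, and 39 of them differed from the RMA value by more than the SD within groups. The shared direction is not read as a result, because the members were chosen by this contrast. In RMA signals no groups overlapped, so leaving out an array or taking group medians could not change the direction. For the brightest probe sets, leaving out 1 array gave log2 differences of 0.51 to 0.88 for H2-DMa, 0.44 to 0.80 for H2-DMb2 and 0.49 to 0.72 for Tcf4 in RMA signals. In MAS5 signals, added after seeing the data, it gave 0.56 to 1.37 for H2-DMa (0.996 without Gfi1-KI replicate 2 and 1.19 without Gfi1-KD replicate 3), 0.35 to 0.87 for H2-DMb2 and 0.64 to 0.87 for Tcf4. For Tcf4, probe set 1416725_at gave 0.29 in place of 0.60. The cause was not tested. The count of 0 called probe sets was 0 under all other settings but the two-group analysis of variance, which called 1. The count of members whose groups do not overlap was 6 to 9, with settings added after seeing the data. The share over all filled rows was 57.0% in RMA signals of all arrays. Over the tested probe sets it was 6.14% to 12.7% in the MAS5 settings. Nothing is read from the count, since the members were chosen by this contrast. No paired analysis was possible because the labels give no replicate numbers. Signal over background was not available per probe set, so dim probe sets such as 1416725_at carry more uncertainty than their SD shows. The same holds for H2-DMa on Gfi1-KI replicate 3, where its MAS5 signal was under the array median.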
